A study of Arabidopsis thaliana with 12 samples.

Results

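The genes described here are the 69 loci of the chloroplast and mitochondrial genomes that have a row in the deposited RNA-seq table of Arabidopsis thaliana seedlings. They were taken by their locus identifiers, 59 with the chloroplast prefix ATCG and 10 with the mitochondrial prefix ATMG, out of 14897 genes in all. The TAIR10.1 annotation lists 129 chloroplast and 284 mitochondrial gene records, so each genome is covered only in part. Loci without a row were not analysed here.

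Seedlings were grown in liquid culture under continuous light and treated at the age of 14 days with 20 mM L-Glu (L-glutamate) or with 20 mM urea, and RNA was taken after 48 h. Plants were the wild type Col-0 or the mutant sid2, which is defective in an isochorismate synthase of salicylic acid synthesis, and each of the 4 groups held 3 libraries. The groups follow the sample titles, since the genotype field of the labels reads Col-0 for all 12 samples. The samples include no untreated seedlings, so an effect of L-Glu is relative to urea and the effects of the pair of treatments cannot be told apart. Separate cultures are not named in the labels, so the replicate error is that between libraries and may be technical. Whole seedlings were sampled, so fewer cells of a type and less RNA per cell cannot be told apart.

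Chloroplasts keep a small genome that encodes core subunits of the photosystems, the cytochrome b6f complex, the plastid ATP synthase, the large subunit of Rubisco, an NADH dehydrogenase-like complex and parts of the plastid ribosome. It is read by a bacterial-type RNA polymerase, whose core is plastid-encoded and whose sigma factors are nuclear-encoded, and by a phage-type polymerase encoded in the nucleus. Mitochondrial genes encode subunits of the respiratory complexes, ribosomal proteins, ribosomal RNAs and transfer RNAs, among others, and are read by nuclear-encoded phage-type polymerases. Many organelle genes are transcribed together with their neighbours, and organelle transcripts mostly lack a stable poly(A) tail. No source used here says whether poly(A) RNA was selected. The shares and ranks given below describe the deposited signal and are not read as RNA levels relative to nuclear genes.

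The annotation used here held no record for any of the 69 identifiers. It named 5 of them in notes on related nuclear genes: ATCG00430 as photosystem II reaction center protein G (its nuclear relative AT5G11770 encodes a mitochondrial complex I subunit), ATCG00530 as a CemA-like protein related to proton extrusion, ATCG00670 as the plastid-encoded CLP P protease subunit, ATCG00750 as ribosomal protein S11 and ATMG01080 as subunit 9 of the mitochondrial F0-ATPase. The other 64 are given by locus, without a role. Locus numbers follow the order of genes along each genome.

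Values are the authors' normalized signal per gene, a count-like abundance. The signal of all genes summed to between 2564530 and 4419990 per library, while the median gene lay between 74.1 and 77.2. The number of reads behind these values is unknown. In the libraries labelled sid2 the SID2 gene (EDS16, AT1G74710) was not absent. Its signal in Col-0 was 98.3, 100.1 and 89.6 (urea) and 9615, 7461 and 10896 (L-Glu). In sid2 it was 43.3, 29.8 and 65.4 (urea) and 7434, 5421 and 7340 (L-Glu), lower than in Col-0 under urea but high under L-Glu, so its level does not check the mutant label.

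With L-Glu the chloroplast loci took a smaller share of the signal than with urea, in both genotypes. In Col-0 with urea they held 0.598%, 1.34% and 1.16% of the signal of the 3 libraries, a mean of 1.03% ± 0.386 (SD, n = 3). In Col-0 with L-Glu they held 0.227%, 0.533% and 0.414%, a mean of 0.391% ± 0.155 (SD, n = 3). These shares did not overlap, and Col-0 urea library 1 was low, at about the share of the highest L-Glu library. The total signal that they are relative to was larger with L-Glu (3900390 to 4419990 in Col-0) than with urea (2564530 to 2760970). Summed without that total, the chloroplast signal of Col-0 was 15347, 36953 and 31130 with urea and 10013, 20801 and 17969 with L-Glu, and urea library 1 lay below 2 of the L-Glu libraries. In both treatments library 1 was the lowest and library 2 the highest. Each L-Glu library lay below the urea library of its number. In sid2 with urea the shares were 1.24%, 1.16% and 1.35%, a mean of 1.25% ± 0.0931 (SD, n = 3), against 0.254%, 0.205% and 0.346% with L-Glu, a mean of 0.268% ± 0.0716 (SD, n = 3). Every sid2 urea library lay far above every sid2 L-Glu library, in share and in summed signal.

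The mitochondrial loci differed in the other direction, with shares that overlapped between the treatments. In Col-0 their shares were 0.0678%, 0.211% and 0.0928% with urea and 0.158%, 0.325% and 0.158% with L-Glu. In sid2 they held 0.0726%, 0.206% and 0.0837% with urea and 0.152%, 0.228% and 0.160% with L-Glu. Their summed signal did not overlap: it was 1738, 5833 and 2488 with urea and 6993, 12678 and 6870 with L-Glu in Col-0. In sid2 the sums were 2017, 6276 and 2386, then 6635, 9366 and 6532. In each of the 4 groups library 2 was the highest, in share and in sum. Of the mitochondrial signal, 91.4% to 97.5% came from ATMG00020 and ATMG01390 alone, so the share mostly describes those loci. The annotation used here does not say what they encode, so the share cannot be read as expression of respiratory subunits. Of the chloroplast signal, ATCG00480 gave 13.6% to 27.3%, and it was the only organelle locus among the 100 most abundant genes.

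**Figure D1:**
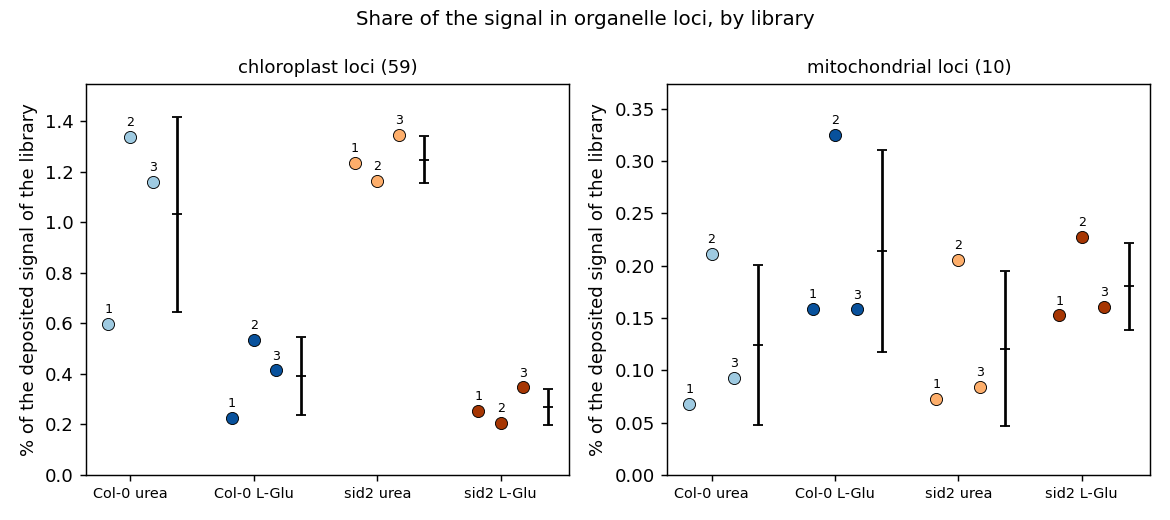
Share of the deposited signal (percent of each library's sum) in the 59 chloroplast and the 10 mitochondrial loci. Points are libraries with their number, bars show the mean and SD of 3 libraries. Chloroplast shares run from 0.598% to 1.35% with urea and from 0.205% to 0.533% with L-Glu.

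In Col-0 many chloroplast loci moved together from library to library. In Col-0 urea library 1 the median chloroplast level was 4.44 on the log2 scale, against 5.52 and 5.35 in the other libraries of its group. Across loci the median SD between the Col-0 urea libraries was 0.88 on the log2 scale, and 0.63 once each library's median chloroplast level was subtracted. For Col-0 with L-Glu these were 0.63 and 0.31, for sid2 with urea 0.39 and 0.37 and for sid2 with L-Glu 0.41 and 0.36. Subtracting the median changed the spread little in sid2.

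A second kind of spread touched single loci. The urea libraries numbered 2 stood at least 2-fold above both other urea libraries of their genotype, in Col-0 and in sid2 alike, for 8 of the 59 chloroplast loci and 3 of the 10 mitochondrial loci. Of all 14897 genes, 18 did so (0.121%). For the urea libraries numbered 1 and those numbered 3 the count was 2 genes each and no organelle locus. These counts were made after the values were seen. The loci were ATCG00020, ATCG00140, ATCG00350, ATCG00490, ATCG00500, ATCG00680, ATCG00720 and ATCG00730, and ATMG00020, ATMG00030 and ATMG01360. What these libraries share is not given in the labels, and its part in the results was not tested.

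ATCG00020 showed it most. In Col-0 its signal was 235, 4574 and 407 with urea, then 529, 921 and 559 with L-Glu. In sid2 it was 216, 1974 and 275, then 403, 599 and 566. Library 2 was 11.2-fold above the next urea library in Col-0 and 7.18-fold in sid2, and the remaining urea libraries lay below all L-Glu libraries. With all libraries the log2 fold change of L-Glu against urea was -0.23 (SE 0.795) in Col-0 and 0.07 (SE 0.795) in sid2, neither called (limma, adjusted p = 0.817 and 0.947). Without the urea libraries numbered 2, an alternative chosen after seeing the data, the log2 fold change was 1.06 in Col-0 and 1.07 in sid2. The fit then called ATCG00020 higher in both genotypes, alone among the chloroplast loci. The libraries left out were those that stood out at this locus, so that call is no test of a rise.

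**Figure D2:**
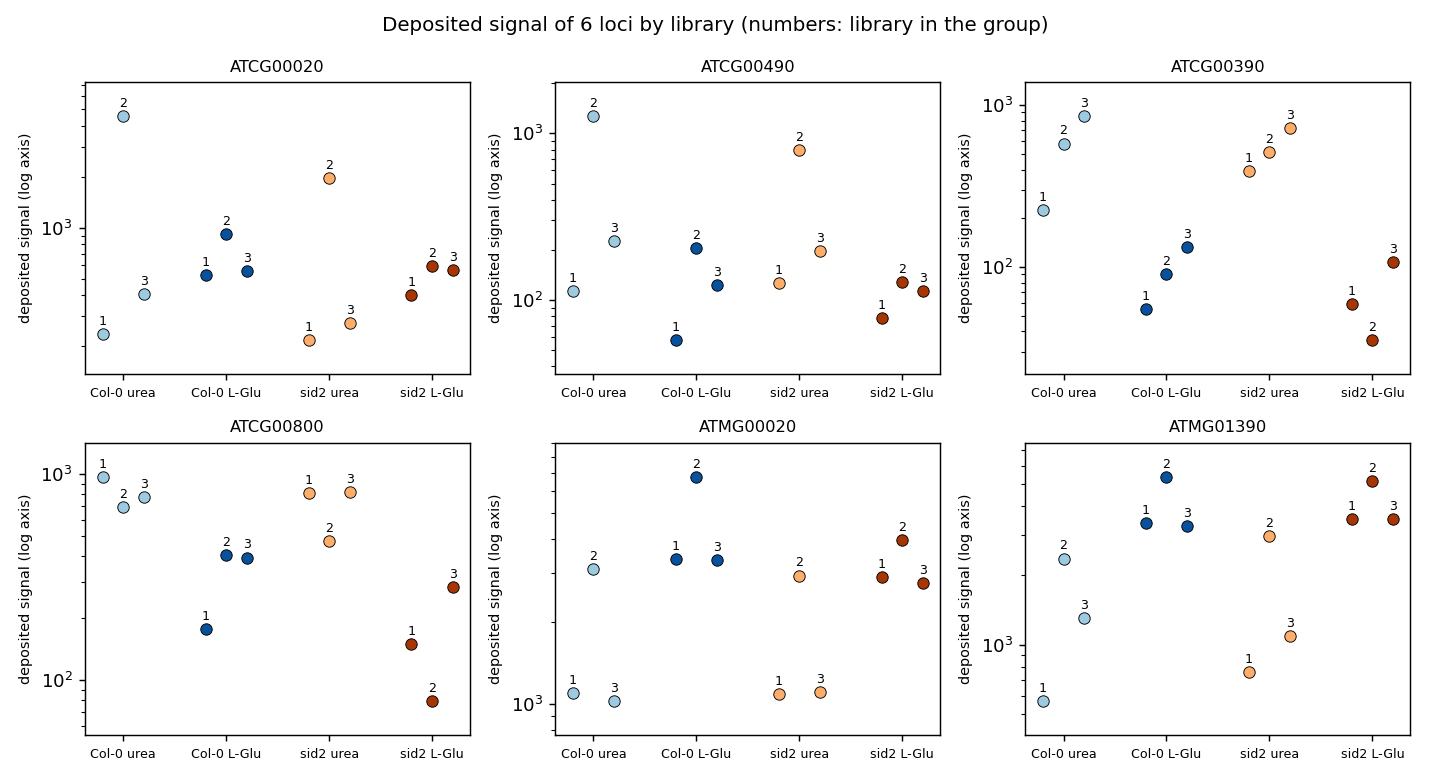
Deposited signal (log axis, with its own range in each panel) of 6 loci in the 12 libraries, each point labelled with its library number. ATCG00020 and ATCG00490 are highest in the urea libraries numbered 2 (4574 and 1272 in Col-0), ATCG00390 and ATCG00800 are lower with L-Glu in both genotypes, and ATMG00020 and ATMG01390 are mostly higher with L-Glu.

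The first comparison asked how L-Glu differed from urea in the wild type. Of the 59 chloroplast loci 24 fell (40.7%) and none rose at an adjusted p under 0.05 (limma on log2 values, Benjamini-Hochberg over all genes). Over all 14897 genes 30.3% were called lower and 29.7% higher, 60.1% together, so the share of chloroplast loci called in either direction was below that of all genes. Estimates were negative for 54 of 59 chloroplast loci, against 51.8% of all genes. Their median log2 fold change was -0.70, against -0.05 over all genes, with a range from -2.42 to 0.35. This median was -1.10 without Col-0 urea library 1, -0.33 without Col-0 urea library 2 and -0.34 when Col-0 L-Glu library 1 was left out. For 16 loci (27.1%) all L-Glu libraries lay below all urea libraries, close to the 31.1% of all genes.

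The lowest fold changes in Col-0 belonged to ATCG00390, ATCG00080 and ATCG00400. ATCG00390 measured 226, 579 and 856 with urea and 55.0, 90.8 and 133 with L-Glu (log2 fold change -2.42, SE 0.420, limma adjusted p = 6.21e-05). ATCG00080 measured 64.7, 190.4 and 172 with urea and 9.98, 17.5 and 50.6 with L-Glu (-2.42, SE 0.447, limma adjusted p = 0.000124). ATCG00400 measured 112, 264 and 177 with urea and 14.3, 60.8 and 57.5 with L-Glu (-2.11, SE 0.378, limma adjusted p = 8.71e-05). In each of these loci the treatments did not overlap. ATCG00770 and ATCG00070 followed at -1.69 (SE 0.413) and -1.68 (SE 0.382), with limma adjusted p = 0.00170 and 0.000877 and no overlap.

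Of the loci with a name in the annotation, 3 fell in Col-0. ATCG00530, the CemA-like protein locus, measured 95.7, 138 and 74.1 with urea and 19.6, 48.7 and 41.0 with L-Glu without overlap (-1.45, SE 0.394, limma adjusted p = 0.00386). ATCG00750, the locus of ribosomal protein S11, measured 160.0, 73.9 and 87.6 with urea and 20.7, 60.0 and 80.1 with L-Glu (-1.06, SE 0.380, limma adjusted p = 0.0227). Its groups overlapped, as did those of ATCG00430, which stood at 750.0, 2542 and 2808 with urea and 500.1, 1379 and 894 with L-Glu. The annotation names ATCG00430 as a photosystem II protein, but its nuclear relative encodes a mitochondrial complex I subunit. Its values are therefore not read as a photosystem II result. For ATCG00430 the fold change was -1.04 (SE 0.398, limma adjusted p = 0.0313), a call that 15 of 21 alternative settings kept. The protease subunit locus ATCG00670, at 55.3, 158 and 159 with urea and 52.7, 145 and 144 with L-Glu, was not called (-0.11, SE 0.388, limma adjusted p = 0.820).

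ATCG00480, the chloroplast locus with the highest mean in every group but Col-0 with L-Glu, where ATCG01130 was level with it (3162 against 3137), was not called in Col-0. It measured 2087, 7753 and 6882 with urea and 2451, 3968 and 2993 with L-Glu (-0.64, SE 0.373, limma adjusted p = 0.143), with urea library 1 below every L-Glu library. ATCG01130 and ATCG01020, also among the abundant loci, differed by -0.13 (SE 0.466) and 0.17 (SE 0.365), each with overlapping groups. Over the loci the count of 24 depended on single libraries. It rose to 37 when Col-0 urea library 1 was left out and dropped to 13 without Col-0 L-Glu library 1, the lowest L-Glu library of Col-0 in chloroplast share.

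Of the 10 mitochondrial loci 5 rose in Col-0 and none fell, against 29.7% and 30.3% of all genes, and all 10 estimates were positive (median 0.98, range 0.07 to 1.69). For 4 of them the L-Glu libraries lay above all urea libraries, against 30.7% of all genes. The median was 0.61 when Col-0 L-Glu library 2 was left out, 0.67 without Col-0 urea library 1 and 1.32 without Col-0 urea library 2. For most of these loci Col-0 urea library 1 held the lowest value of all libraries. ATMG01390 measured 568, 2370.4 and 1301 with urea and 3375, 5376 and 3273 with L-Glu (1.69, SE 0.453, limma adjusted p = 0.00344). ATMG00020 measured 1096, 3113 and 1022 with urea and 3376, 6781 and 3353 with L-Glu (1.48, SE 0.416, limma adjusted p = 0.00477). Neither overlapped, but urea library 2 of ATMG00020 came close to the lowest L-Glu library.

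Of the other mitochondrial loci that rose, ATMG00160 and ATMG00640 had low signal. ATMG00160 measured 4.12, 14.4 and 4.26 with urea and 21.3, 33.2 and 21.2 with L-Glu (1.47, SE 0.354, limma adjusted p = 0.00145). ATMG00640 measured 1.42, 8.51 and 8.04 with urea and 24.3, 16.1 and 13.6 with L-Glu (1.26, SE 0.340, limma adjusted p = 0.00374). At these levels the pseudocount of 3.49 signal units understates the fold change. For both, the L-Glu libraries lay above the urea libraries. ATMG00030 rose by 1.40 (SE 0.498, limma adjusted p = 0.0215) with overlapping groups, its urea library 2 standing at 149.9 beside 23.4 and 41.0. ATMG01080, the locus of ATP synthase subunit 9, differed by 0.07 (SE 0.513) and was not called.

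The rise of the mitochondrial loci depended on the scaling. With each library scaled to one total, the median fold change over all genes moved from -0.05 to -0.66 in Col-0, the mitochondrial median fell to 0.46 and 3 loci were called. Under quantile normalization 3 were called as well. ATMG00020 lost its call under both and ATMG01390 under quantile normalization. The chloroplast median stayed negative under both, at -1.30 and -0.94, with 45 and 30 loci called lower.

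The same comparison in sid2 gave more calls among the chloroplast loci. Of 59 loci 41 fell (69.5%) and none rose. Over all genes 32.4% were called lower, 32% higher and 64.4% in either direction. The median chloroplast log2 fold change was -1.35, against -0.02 over all genes, and 58 of 59 estimates were negative, with ATCG00020 at 0.07 the exception. For 41 loci the L-Glu libraries lay below all urea libraries, against 36.4% of all genes. Without single libraries the count of calls lay between 35 and 46.

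The locus with the lowest fold change in sid2 was ATCG00400, with 214, 210.0 and 189 with urea and 14.3, 16.9 and 18.1 with L-Glu (-3.39, SE 0.378, limma adjusted p = 2.33e-07). ATCG00080 measured 192, 171 and 182 with urea and 28.1, 9.0 and 22.7 with L-Glu (-3.09, SE 0.447, limma adjusted p = 6.89e-06). ATCG00390 measured 389, 510.4 and 723 with urea and 59.3, 35.2 and 108 with L-Glu (-3.03, SE 0.420, limma adjusted p = 4e-06). They were the lowest loci in Col-0 too, and in sid2 as well no L-Glu library reached a urea library.

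ATCG00430, whose name and nuclear relative point to different complexes, stood at 3096, 3646 and 4325 with urea and 641, 479 and 707 with L-Glu in sid2 (-2.60, SE 0.398, limma adjusted p = 1.34e-05). ATCG00470 stood at 4359, 4180.2 and 5490.0 with urea and 769.7, 654 and 1076 with L-Glu (-2.50, SE 0.388, limma adjusted p = 1.56e-05). The abundant ATCG00480 stood at 9384, 9659.5 and 9142 with urea and 2929, 2135 and 2620.3 with L-Glu (-1.89, SE 0.373, limma adjusted p = 0.000215). In all of these the groups lay far apart, and the urea libraries of sid2 were close to each other where those of Col-0 were not.

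Among the other annotated loci ATCG00530, the CemA-like protein locus, fell in sid2 with a log2 fold change of -2.37 (SE 0.394) and ATCG00750, for ribosomal protein S11, with one of -1.86 (SE 0.380), at limma adjusted p = 3.4e-05 and 0.000295. ATCG00670, the CLP P locus, measured 115, 119 and 100.1 with urea and 53.0, 38.9 and 84.9 with L-Glu (-0.94, SE 0.388, limma adjusted p = 0.0402), and 14 of 21 alternative settings kept the call. Apart from it, the called loci with the smallest decreases were ATCG00170 at -0.83 (SE 0.267, limma adjusted p = 0.0113) and ATCG01110 at -0.97 (SE 0.323, limma adjusted p = 0.0132).

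In sid2 the mitochondrial loci were mixed: 2 rose, 1 fell and 7 were not called, with a median log2 fold change of 0.32. For 3 loci the L-Glu libraries lay above and for 1 below all urea libraries, against 35.6% and 36.4% of all genes. The median was 0.14, 0.53 and 0.11 when sid2 urea library 1, 2 or 3 was left out. ATMG01390 measured 758, 2967 and 1089.8 with urea and 3506, 5163 and 3508 with L-Glu, without overlap (1.56, SE 0.453, limma adjusted p = 0.00554). ATMG00020 measured 1086, 2949 and 1102 with urea and 2908, 3972 and 2776 with L-Glu (1.06, SE 0.416, limma adjusted p = 0.0325). Here urea library 2 lay inside the L-Glu range. ATMG01080, the ATP synthase subunit 9 locus, measured 40.1, 80.2 and 69.2 with urea and 16.3, 27.8 and 30.4 with L-Glu, lower without overlap (-1.22, SE 0.513, limma adjusted p = 0.0444).

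Each of these 3 calls had a limit. With each library scaled to one total the sid2 mitochondrial median turned to -0.12, beside a median over all genes that moved from -0.02 to -0.52. ATMG00020 lost its call under that scaling and under quantile normalization, which also ended the call of ATMG01390 and left ATMG01080 the only call. The call of ATMG01080 was kept in 12 of 21 alternatives. The mitochondrial count was 1 without sid2 urea library 3, sid2 L-Glu library 1 or sid2 L-Glu library 2, and 4 without the urea libraries numbered 2, all 4 of them higher.

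**Figure D3:**
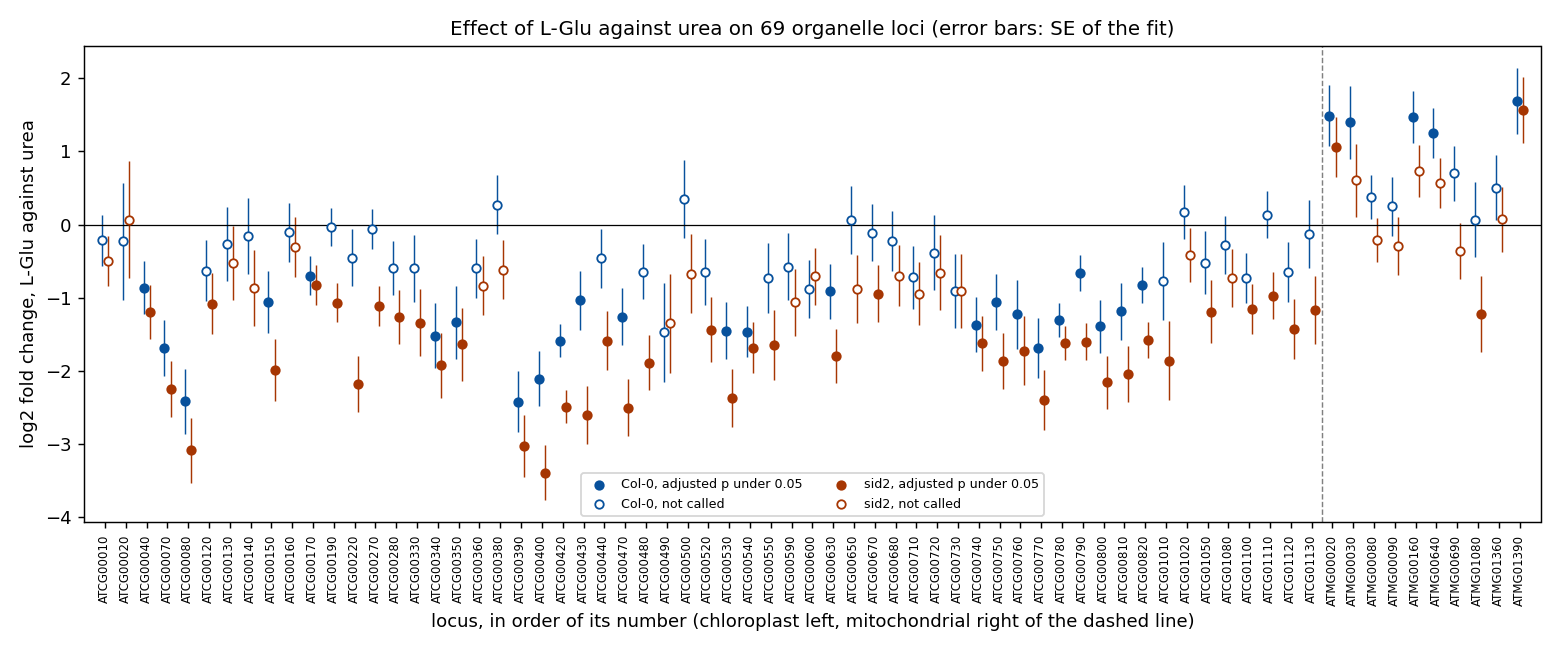
Log2 fold change of L-Glu against urea (on signal scaled by one constant plus 1) for the 69 loci in order of their number, in Col-0 (blue) and sid2 (red). Filled points have an adjusted p under 0.05 and bars show the SE of the fit. Nearly all chloroplast points lie below 0, down to -3.39 for ATCG00400 in sid2, and the mitochondrial points of Col-0 lie above 0.

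Set side by side, 24 chloroplast loci were called lower in both genotypes, 17 in sid2 and not in Col-0, and 18 in neither. These patterns were not counted over all genes, so whether they differ from those of all genes cannot be said. Of all genes 30.3% were called lower in Col-0 and 32.4% in sid2, and 60.1% and 64.4% in either direction. Whether the effects differed between the genotypes was tested with the interaction term, which called none of the 69 loci in the main fit. The genotypes share no libraries, but all comparisons share one estimate of the spread. The loci called in neither genotype were ATCG00010, ATCG00020, ATCG00130, ATCG00140, ATCG00160, ATCG00360, ATCG00380, ATCG00490, ATCG00500, ATCG00590, ATCG00600, ATCG00650, ATCG00680, ATCG00710, ATCG00720, ATCG00730, ATCG01020 and ATCG01080. Of these 18, 7 are among the loci that stood at least 2-fold higher in both urea libraries numbered 2. Of the mitochondrial loci ATMG00020 and ATMG01390 were called higher in both genotypes, ATMG00030, ATMG00160 and ATMG00640 in Col-0 and not in sid2, and ATMG00080, ATMG00090, ATMG00690 and ATMG01360 in neither.

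ATCG00490 was one of the 18. It measured 113, 1272 and 224 with urea and 57.1, 205 and 122 with L-Glu in Col-0, and 126, 795 and 196 with urea and 77.7, 128 and 113 with L-Glu in sid2. Its urea library 2 was far above the others in both genotypes. The log2 fold changes were -1.47 (SE 0.675, limma adjusted p = 0.0677) and -1.35 (SE 0.675, limma adjusted p = 0.0879). With the library number as a block, shared by all groups, the SE was 0.361 and both values passed. The limma adjusted p was 0.00204 in Col-0, whose libraries were not taken as paired, and 0.00350 in sid2. The same block also took ATCG00360, ATCG00590, ATCG00710 and ATCG00730 past the threshold in sid2, with limma adjusted p from 0.0247 to 0.0444.

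Some runs of neighbouring loci held similar values. They were picked after the values were seen, so their counts are a description. All 9 measured loci from ATCG00740 to ATCG00820 fell in both genotypes, by log2 fold changes from -1.69 to -0.66 in Col-0, then from -2.40 to -1.58 in sid2. In this run Col-0 urea library 1 was the lowest of its group in ATCG00820 only. ATCG00800, for example, measured 974, 693 and 777 in Col-0 with urea and 177, 406 and 394 with L-Glu, and 809.8, 475 and 823 in sid2 with urea and 150.3, 79.0 and 283 with L-Glu. ATCG00750, the ribosomal protein S11 locus, is part of the run.

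From ATCG00390 to ATCG00480, 5 of 7 measured loci fell in Col-0 and all 7 in sid2, where their fold changes ran from -3.39 to -1.59. ATCG00420 in this run had the smallest spread, at 495, 570.1 and 703 with urea and 139, 282 and 179 with L-Glu in Col-0, and at 884, 905 and 1048 with urea and 157, 149 and 193 with L-Glu in sid2. Its fold changes were -1.59 (SE 0.224, limma adjusted p = 5.45e-06) and -2.49 (SE 0.224, limma adjusted p = 1.18e-08). Just before the run that starts at ATCG00740, none of the 4 measured loci from ATCG00680 to ATCG00730 was called in either genotype, with fold changes from -0.91 to -0.23 and from -0.94 to -0.66. At ATCG01080 to ATCG01130, 0 of 5 were called in Col-0 and 4 of 5 fell in sid2.

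To see which loci stood apart from their own genome, the median over the measured loci of a genome was subtracted in each library. On this relative scale ATCG00080, ATCG00390 and ATCG00400 were lower with L-Glu without overlap in both genotypes, with differences of -1.52, -1.52 and -1.21 in Col-0 (sid2: -1.40, -1.34 and -1.70). ATCG00010, ATCG00160, ATCG00190, ATCG00380, ATCG00670 (the CLP P locus) and ATCG01020 were higher without overlap in both, so their signal was kept more than that of the median chloroplast locus. ATCG01020, for example, stood 1.07 and 1.27 higher on this scale. Its levels were 884, 1824 and 2231 in Col-0 with urea and 1059.6, 2023 and 2406 with L-Glu, and 1509, 1789.5 and 2777 in sid2 with urea and 1376, 1017 and 2260.5 with L-Glu. Among mitochondrial loci ATMG00020, ATMG00030, ATMG00160 and ATMG01390 were relatively higher in both genotypes, by 0.90 to 1.20 in Col-0 (0.96 to 1.92 in sid2). The relative values carry no test.

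**Figure D4:**
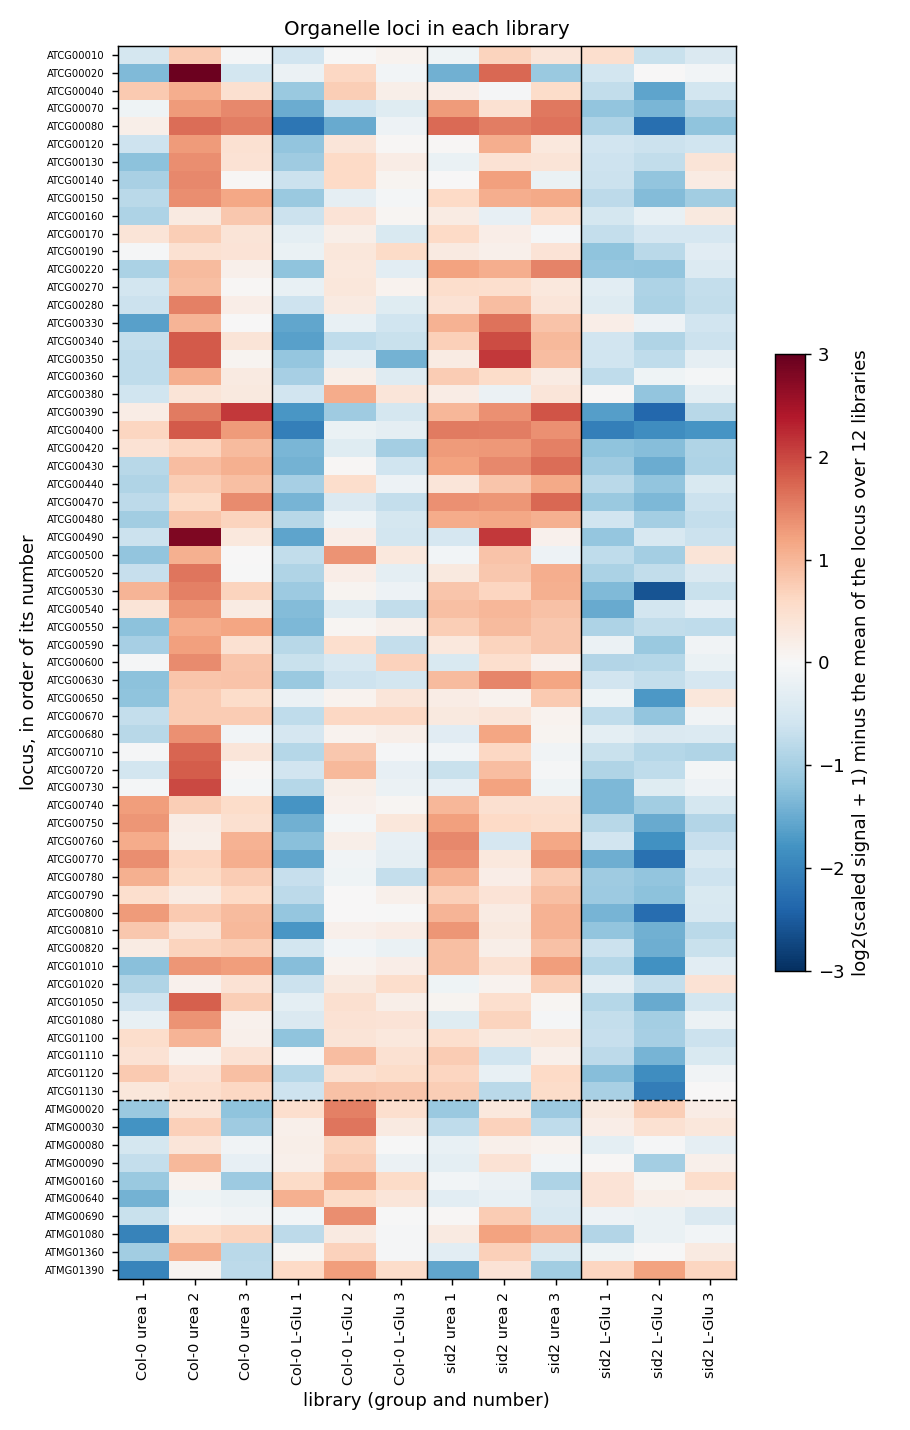
Log2 level of each of the 69 loci in each of the 12 libraries, minus the mean of the locus over the libraries (colour scale limited to 3 in either direction). Rows follow the locus number, with the 10 mitochondrial loci below the dashed line, and columns are grouped by genotype and treatment. Most chloroplast rows turn from red with urea to blue with L-Glu, most evenly in sid2, and Col-0 urea library 1 is blue in many of them.

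The interaction term tested whether the effect of L-Glu differed between the genotypes. None of the 69 loci was called with limma at an adjusted p under 0.05, against 1.95% of all genes. With the library number as a block, shared by all groups although the Col-0 libraries were not taken as paired, 1 was called, ATCG00220. At an unadjusted p under 0.05, 11 of 59 chloroplast loci (18.6%) and 0 of 10 mitochondrial loci passed, all 11 with a lower estimate in sid2. Of all genes 16.9% passed in either direction and 8.49% with a lower estimate. Estimates were negative for 56 of 59 chloroplast and 10 of 10 mitochondrial loci, with medians of -0.71 and -0.64 against -0.04 over all genes. Loci of 1 library are not independent, and single libraries moved these values. Leaving out Col-0 urea library 1 gave medians of -0.24 and -0.26, and leaving out Col-0 L-Glu library 2 gave -0.48 and -0.36. The chloroplast median was -0.39 without sid2 L-Glu library 2 and -1.04 when Col-0 L-Glu library 1 was left out, and the mitochondrial median was -1.06 without Col-0 urea library 2. The unadjusted chloroplast count of 11 ranged from 6, without Col-0 L-Glu library 2 or sid2 L-Glu library 2, to 24, without Col-0 L-Glu library 1.

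The smallest interaction p among the organelle loci was that of ATCG00220. It measured 288, 1083 and 615 with urea and 241, 698 and 443 with L-Glu in Col-0, but 1297, 1185 and 1581 with urea and 248, 244 and 417 with L-Glu in sid2. The L-Glu groups overlapped between the genotypes and the urea groups did not. The effect was -0.45 (SE 0.384) in Col-0 and -2.18 (SE 0.384) in sid2, an interaction of -1.73 (SE 0.544, limma adjusted p = 0.105). With the library number as a block the SE was 0.437 and the limma adjusted p 0.0438. The interaction gave 3 chloroplast calls when Col-0 L-Glu library 1 was left out and 2 without Col-0 urea library 2.

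Between the genotypes under urea, no organelle locus was called with limma, against 0.248% of all genes. At an unadjusted p under 0.05, 7 chloroplast loci and ATMG01080 were higher in sid2 and none lower, against 3.53% of all genes higher. Without overlap 5 chloroplast loci were higher in sid2 and none lower, against 5.93% and 5.37% of all genes. The median log2 differences of sid2 from Col-0 were 0.16 for the chloroplast and 0.24 for the mitochondrial loci. Without Col-0 urea library 1 these turned to -0.20 and -0.13, so their sign rests on that library. Leaving out Col-0 urea library 2 gave 0.52 and 0.58, and the chloroplast median was 0.10 without sid2 urea library 3. The mitochondrial median was 0.0030 without sid2 urea library 2 and 0.38 without sid2 urea library 3. The unadjusted chloroplast count of 7 was 4 without Col-0 urea library 1 and 13 without Col-0 urea library 2. ATCG00480 illustrates it, with 2087 in Col-0 urea library 1, 7753 and 6882 in the other libraries of that group and 9142 to 9659.5 in sid2.

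Under L-Glu, ATCG00190 and ATCG01110 were lower in sid2 than in Col-0 (2 of 59 chloroplast loci, 3.39%), against 6.04% of all genes called lower, 7.27% called higher and 13.3% in all. ATCG00190 measured 45, 67.7 and 80.1 in Col-0, against 20.8, 28.5 and 40.5 in sid2 (-1.03, SE 0.266, limma adjusted p = 0.0167). ATCG01110 measured 66.4, 134 and 95.2 in Col-0, against 38.3, 24.0 and 48.8 in sid2 (-1.33, SE 0.323, limma adjusted p = 0.0117). Neither locus overlapped between the genotypes, and neither differed under urea, where the differences were 0.01 (SE 0.266) and -0.22 (SE 0.323). At an unadjusted p under 0.05, 13 chloroplast loci passed, all lower in sid2 (22% of 59). Of all genes 28.8% passed in either direction and 14.5% lower in sid2. The count of 13 ranged from 3, without sid2 L-Glu library 2, to 25, without Col-0 L-Glu library 1. Without overlap 6 chloroplast and 3 mitochondrial loci were lower in sid2, against 17.5% of all genes. Differences were negative for 53 of 59 chloroplast and 9 of 10 mitochondrial loci, with medians of -0.50 and -0.42. Leaving out Col-0 L-Glu library 2 gave -0.24 and -0.15, and the chloroplast median was -0.87 when Col-0 L-Glu library 1 was left out.

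The count of 2 was not stable. It was 14 without Col-0 L-Glu library 1, 7 without Col-0 urea library 1 or sid2 L-Glu library 3, 4 without Col-0 urea library 2, 3 without sid2 urea library 2, 1 after leaving out Col-0 L-Glu library 3 or sid2 L-Glu library 1, and 0 when library 2 of either L-Glu group was left out.

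Nuclear genes that serve the organelle genomes were counted from lists in the same fit, where 30.3% of all genes fell in Col-0 and 32.4% in sid2. Of the list of the plastid RNA polymerase and its sigma factors, 18 of 20 genes were measured and 15 fell in each genotype, with none rising and medians of -1.75 in Col-0 and -1.87 in sid2. SIG6 (SIGF), a sigma factor that recruits the bacterial-type polymerase to promoters, measured 267 ± 9.59 under urea and 24.9 ± 9.44 under L-Glu in Col-0 (means ± SD over 3 libraries, log2 fold change -3.31, SE 0.221, limma adjusted p = 1.57e-10). In sid2 the values were 309 ± 28.3 and 32.4 ± 2.16 (-3.12, SE 0.221, limma adjusted p = 3.6e-10). SIG1 (SIGA), another sigma factor, changed by -2.52 (SE 0.213) and -3.16 (SE 0.213). SIG5, a stress-responsive sigma factor, and RPOTp, the phage-type polymerase of plastids, were not called in either genotype, at -0.28 and 0.24 in Col-0 (sid2: 0.46 and 0.47).

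The mitochondrial phage-type polymerases differed in the other direction. RPOTmp (AT5G15700), which serves both organelles, rose in both genotypes, by 1.28 (SE 0.264, limma adjusted p = 0.000376) and 1.63 (SE 0.264, limma adjusted p = 2.5e-05). RPOTm (MGP3, AT1G68990), the mitochondrial enzyme, rose in sid2 by 1.18 (SE 0.183, limma adjusted p = 1.62e-05) and was not called in Col-0 (0.18, SE 0.183). Of 15 measured organelle RNA processing and stability factors (16 in the list), 13 fell and 1 rose in each genotype, with medians of -1.98 and -2.27. Of all genes 30.3% fell in Col-0 and 32.4% in sid2. CSP41A, a plastid RNA-binding endonuclease, changed by -5.29 and -5.17, and HCF173, which promotes translation of a photosystem II core protein, by -4.46 and -4.61. The gene that rose was that of the mitochondrial polynucleotide phosphorylase (1.54 and 2.26), which degrades and trims mitochondrial RNA.

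Nuclear-encoded partners in the chloroplast complexes all fell, 26 of 26 measured (31 in the list) in both genotypes, with medians of -4.87 and -4.82. The share of all genes that fell was 30.3% in Col-0 and 32.4% in sid2. For PSAN and PSAE-1, subunits of photosystem I, the Col-0 fold changes were both -5.88 (SE 0.240 and 0.253). PSBP-1 and PSBQA of the oxygen-evolving complex of photosystem II changed by -5.19 (SE 0.250) and -5.11 (SE 0.251), and the Rieske protein gene PETC of the cytochrome b6f complex by -5.93 (SE 0.210). PDE334 and ATPC1 of the plastid ATP synthase changed by -4.58 (SE 0.170) and -4.74 (SE 0.204), and the Rubisco small subunit genes RBCS1A and RBCS3B by -5.76 (SE 0.338) and -8.29 (SE 0.482). The medians of the chloroplast loci were -0.70 and -1.35, and the difference between the sets was not tested. Of the 4 listed nuclear genes of the plastid NADH dehydrogenase-like complex none was measured.

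Nuclear-encoded partners in the mitochondrial complexes fell by less, 15 of 31 in each genotype (48.4%) with none rising and medians of -0.52 and -0.45. Over all genes 30.3% fell in Col-0 and 32.4% in sid2. GAMMA CA3, a carbonic anhydrase-like subunit of complex I, changed by -0.88 (SE 0.207) in Col-0 and -0.81 (SE 0.207) in sid2. QCR7 (AT4G32470) of complex III changed by -0.94 (SE 0.220) and -1.02 (SE 0.220), and ATP3, the gamma subunit of the mitochondrial ATP synthase, by -0.87 (SE 0.167) and -0.64 (SE 0.167). COX6B of complex IV fell in Col-0 by 0.59 (SE 0.161, limma adjusted p = 0.00389) and missed the threshold in sid2 at -0.35 (SE 0.161, limma adjusted p = 0.0653).

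**Figure D5:**
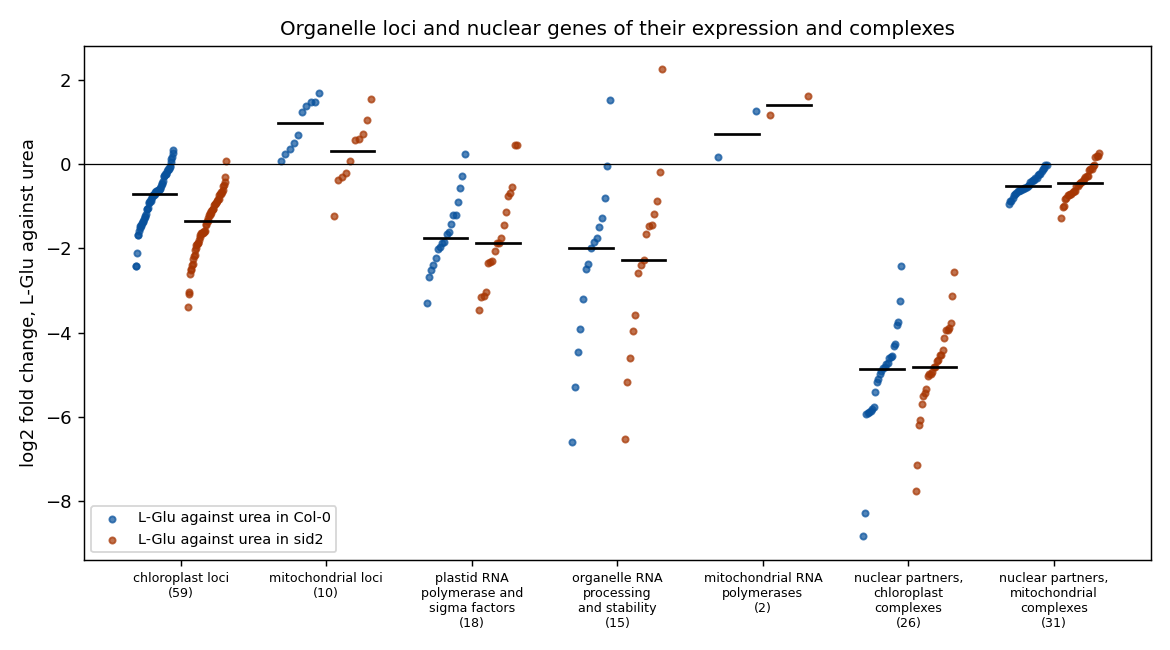
Log2 fold change of L-Glu against urea for the organelle loci and for nuclear genes of organelle expression and organelle complexes, with the number of genes in brackets. Each point is a gene, sorted within its set, in Col-0 (blue) and sid2 (red), and bars mark medians. Nuclear partners of the chloroplast complexes lie lowest (medians -4.87 and -4.82), the chloroplast loci at -0.70 and -1.35.

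Some markers of plant parts differed between the treatments. Over all genes 29.7% rose and 30.3% fell in Col-0, and 32% rose and 32.4% fell in sid2. Of 11 shoot and leaf markers 4 were measured and 3 fell in each genotype: AS1, a leaf identity factor (-2.25 and -2.73), KAN, a factor of leaf polarity (-1.45 and -1.07), and MYB60, a guard cell factor (-0.92 and -0.90). The stomatal factor FMA was not called (0.28 and -0.27). Summed over these markers the signal was 424 to 651 in Col-0 with urea, 250.2 to 333 with L-Glu, 583 to 587 in sid2 with urea and 235 to 244 with L-Glu. Of 12 root markers 8 were measured. In Col-0 3 rose, PYK10 (a root beta-glucosidase), PHO1 and MYB36, and none fell, while in sid2 MYB36 rose and SCR, SHR and TIP2;3 fell. With 8 measured markers, 3 calls in a direction are near the shares of all genes. Root marker sums, led by PYK10, ranged over 2922 to 4500 (urea) and 5075 to 9804 (L-Glu) in Col-0, and over 3271 to 3923 (urea) and 3743 to 4596 (L-Glu) in sid2. Their part in the organelle results was not tested.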

How the data were processed

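RNA-seq signal was analysed for 12 libraries in 4 groups of 3. The deposited table holds the authors' normalized signal per gene. Its values are not whole numbers and the normalization is not given in the sources used here. Per the submitters' processing notes, edgeR 3.22.3, HTSeq 0.6.0, TopHat and TopHat2 2.1.0 were used with build TAIR10, in roles not given. Whether counting used strand is not given in the sources used here, and reads of near-identical copies, such as the mitochondrial insertion in nuclear chromosome 2, may be shared between loci.

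Values were divided by 3.492, 1 was added (3.49 in deposited units), and limma 3.58.1 (R 4.3.3) was run on the log2 values. One model held 4 group means over the 12 libraries, with an intensity trend and 8 residual degrees of freedom. P-values are two-sided and were Benjamini-Hochberg adjusted over all 14897 genes, and the threshold was 0.05. The fit was tested on simulated data with independent noise for each gene and library. That setting does not cover loci that move together within a library, or single outlying libraries. Of the 5 comparisons, 2 set L-Glu against urea (Col-0, sid2), 1 is their interaction and 2 set the genotypes against each other (urea, L-Glu). Alternatives changed the pseudocount, a minimum mean, the scaling, the groups fitted, the trend, a block for the library number, and the libraries left out.

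By the correlation of their deviations from group means, same-numbered libraries deviated together at 0.116 to 0.287 between the treatments in sid2. Between the genotypes under urea the correlation was 0.126 to 0.219. They were taken as paired in both cases. The main fit held no pairing, so its p-values are unpaired. Pairing entered only through the alternative with the library number as a block. Same-numbered libraries were not taken as paired in Col-0 (0.0265 to 0.0861) or between the genotypes under L-Glu (-0.11 to 0.142). These correlations run over all genes. The summed chloroplast signal of Col-0 ranked the library numbers alike in both treatments, and its pairing was not tested.

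Loci to name were, per comparison, the 5 highest and 5 lowest called fold changes and all called loci of the interaction and genotype comparisons, plus the 2 genes with the smallest p of each nuclear list. Further loci were named after their values were seen. The part of that rule given by gene symbol, and classes by complex, could not be applied because 64 loci had no name. The organelle loci and the lists were chosen with earlier results of these data known.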

Additional observations from a re-analysis of the deposited data

How the results depend on the processing

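Of the calls of L-Glu against urea, 12 of 24 chloroplast and 2 of 5 mitochondrial calls in Col-0, and 32 of 41 and 0 of 3 in sid2, were kept in every alternative that tested them, of 21 run. ATMG00160, ATMG00640 and ATCG00520 were tested in 20, since a minimum mean of 5 removed them. Neither of the 2 calls between the genotypes under L-Glu was, and 0 calls turned direction. With each library scaled to one total, Col-0 gave 45 chloroplast and 3 mitochondrial calls, and the sid2 mitochondrial median turned to -0.12. Quantile normalization left 3 mitochondrial calls in Col-0 and 1 in sid2. A minimum mean of 5 left 3 in Col-0, since 6 of the 10 loci passed it. Under L-Glu the genotype comparison gave 5 chloroplast calls with only the compared groups in the fit, 7 with the replicate block and 4 without the urea libraries numbered 2. With the replicate block the interaction gave 1 chloroplast call (ATCG00220, adjusted p = 0.0438 in limma), and the effect of L-Glu gave 26 chloroplast and 5 mitochondrial calls in Col-0 and 46 and 3 in sid2. In Col-0, where the libraries were not taken as paired, the block added ATCG00490, ATCG00600 and ATCG00730. It ended 1 call, that of ATCG00040 in Col-0 (adjusted p = 0.0517 in limma).

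Leaving out single libraries gave 13 to 37 chloroplast and 4 to 6 mitochondrial calls for L-Glu in Col-0, 35 to 46 and 1 to 4 in sid2, 0 to 3 and 0 for the interaction, 0 to 14 and 0 for the genotypes under L-Glu, and 0 for both under urea. Without Col-0 urea library 1 the medians of sid2 against Col-0 under urea turned to -0.20 for chloroplast and -0.13 for mitochondrial loci, and without Col-0 urea library 2 they were 0.52 and 0.58. The 100 most abundant genes, ATCG00480 among them, were also left out of the total and of the organelle sums. The mean chloroplast share was then 0.915% (Col-0 urea), 0.413% (Col-0 L-Glu), 1.04% (sid2 urea) and 0.273% (sid2 L-Glu). In the same order the mean mitochondrial share was 0.137%, 0.279%, 0.137% and 0.237%. Where not named, the cause of a change was not tested. Read depth is unknown, so which weakly expressed loci it limits cannot be said.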

Other observations

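A near-complete copy of the mitochondrial genome lies in nuclear chromosome 2. The deposited table also held 6 loci numbered in a range taken for that stretch. Whether each locus is part of the copy was not checked, and ABCC13 and MCM5 are not taken as mitochondrial copies. ABCC13 (AT2G07680), a transporter gene, fell with L-Glu, with log2 fold changes of -1.90 in Col-0 and -2.24 in sid2 (limma adjusted p = 1.07e-05 and 1.20e-06). MCM5 (AT2G07690), a replication factor gene, differed by 0.25 in Col-0 and rose by 0.72 in sid2 (limma adjusted p = 0.421 and 0.0214). AT2G07708, AT2G07709, AT2G07717 and AT2G07783 were not called in either genotype. AT2G07783, the most abundant of them in most libraries, measured 39.3, 232 and 162 in Col-0 with urea, 157, 292 and 147 with L-Glu, 198, 234 and 183 in sid2 with urea and 151, 130.2 and 136 with L-Glu. As for most of the mitochondrial loci, Col-0 urea library 1 was its lowest value.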
